A study of Homo sapiens with 12 samples.

Results

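The RNA of 10 integrin genes, ITGA2, ITGA3, ITGA5, ITGA6, ITGAV, ITGB1, ITGB3, ITGB4, ITGB5 and ITGB8, was followed in spheroids of SBC3, an established human small cell lung cancer line. The genes were taken by symbol from the 60649 genes counted in each library. Spheroids were labelled Control, Teriflunomide, Lurbinectedin or Teriflunomide/Lurbinectedin (here called the combination), with 3 sequencing libraries in each of the 4 groups. All 12 libraries come from the same line, so no group stands for a second tumour, and the labels used here give no genotype change, dose or exposure time. Teriflunomide blocks DHODH, an enzyme of pyrimidine synthesis. Lurbinectedin binds DNA and hinders transcription by RNA polymerase II. Nothing in the labels says that the 3 libraries of a group came from separate cultures, so the p-values below measure the spread between these libraries, which may be technical.

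Integrins are cell surface receptors made of 1 alpha and 1 beta subunit. They bind proteins of the extracellular matrix outside the cell and, through talins and kindlins, the actin cytoskeleton inside it. The pair formed decides the ligand. ITGB1 joins ITGA2 in a collagen receptor, ITGA3 and ITGA6 in laminin receptors and ITGA5 in the classical fibronectin receptor. ITGAV pairs with ITGB1, ITGB3, ITGB5 or ITGB8 in receptors for vitronectin, fibronectin or latent TGF-beta that recognise the RGD motif. ITGB4 pairs with ITGA6 alone and anchors hemidesmosomes. In small cell lung cancer, adhesion to matrix through ITGB1 receptors is known for protecting cells from chemotherapy.

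The starts of 3 members are shown because these genes belong to the most abundant per length and all lost RNA with lurbinectedin. ITGAV and ITGB1 lost it to a like extent (log2 fold changes of -0.66 and -0.69), and ITGB5 lost more (-2.36). Each sequence is the 250 bases before the RefSeq start on GRCh38.p14, written 5′ to 3′ along the gene's strand, with each GC box (GGGCGG, or CCGCCC on the other strand) in capitals. The window of ITGAV lies at chr2:186589806-186590055 on the plus strand, that of ITGB1 at chr10:32958231-32958480 on the minus strand and that of ITGB5 at chr3:124901419-124901668 on the minus strand.
ITGAV: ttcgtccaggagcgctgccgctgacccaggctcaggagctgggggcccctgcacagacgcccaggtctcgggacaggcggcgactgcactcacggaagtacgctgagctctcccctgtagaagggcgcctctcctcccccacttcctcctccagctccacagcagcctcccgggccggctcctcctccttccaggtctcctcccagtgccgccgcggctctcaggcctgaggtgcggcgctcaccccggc
ITGB1: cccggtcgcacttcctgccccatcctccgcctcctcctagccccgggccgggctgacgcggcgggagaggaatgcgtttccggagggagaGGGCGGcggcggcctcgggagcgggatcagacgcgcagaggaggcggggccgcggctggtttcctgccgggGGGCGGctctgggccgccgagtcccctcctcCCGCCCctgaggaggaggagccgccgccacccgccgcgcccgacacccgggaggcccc
ITGB5: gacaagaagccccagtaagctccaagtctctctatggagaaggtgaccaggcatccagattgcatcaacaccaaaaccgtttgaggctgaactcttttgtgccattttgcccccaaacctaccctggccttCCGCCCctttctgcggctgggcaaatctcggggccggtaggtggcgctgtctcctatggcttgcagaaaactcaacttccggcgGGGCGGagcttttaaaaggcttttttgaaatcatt
The ITGB1 window held 3 GC boxes and 78.4% G or C, the ITGB5 window held 2 and 52.8%, and the ITGAV window held none and 70.8%. Of 35116 RefSeq windows of the same length, 42.6% held a GC box, and the median G and C content was 58.0%. A CCAAT box (CCAAT, or ATTGG) occurs in 32.0% of all windows, a TATA box (TATAAA, or TTTATA) in 10.7% and an AP-1 motif (TGANTCA, the same on both strands) in 6.57%. None of the 3 windows held these letters, which says nothing about the factors. Windows were found for 6 of the 10 members. Those of ITGA2, ITGA5 and ITGA6 are not printed, and the ITGA5 window lies largely in annotated UTR sequence.

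The counted genes lie at the following positions of GRCh38, each running from the first to the last exon. Of the alpha subunits, the files place ITGA2 at chr5:52989340-53094779 (plus strand), ITGA3 at chr17:50055968-50090481 (plus strand) and ITGA5 at chr12:54395261-54419266 (minus strand). On chromosome 2 lie ITGA6 at chr2:172427354-172506459 (plus strand) and ITGAV at chr2:186590056-186680901 (plus strand). Of the beta subunits, ITGB1 lies at chr10:32887273-33005792 (minus strand), ITGB5 at chr3:124761948-124901418 (minus strand) and ITGB8 at chr7:20330702-20415754 (plus strand). On chromosome 17 lie ITGB3 at chr17:47253827-47313743 (plus strand) and ITGB4 at chr17:75721328-75757818 (plus strand). Reads were counted over the exons of each gene, and ITGA6 shares exon bases with PDK1-AS1 on the other strand, which itself had 7 to 38 counts per library. ITGB1 likewise shares bases with ITGB1-DT (4 to 14 counts), ITGB8 with ITGB8-AS1 (0 to 3) and ITGA5 with GPR84-AS1 (0 to 3). ITGAV shares exon bases with a gene without a symbol on the other strand (0 to 1). For ITGB3 such a gene lies on the same strand, and it had 0 counts in every library. The start of ITGB1 in the files lies upstream of the RefSeq start used for its window above, which therefore falls inside the counted span.

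Total counts ranged from 23206414 to 33222162 per library, of which 6554 to 21868 fell on the 10 genes. The third teriflunomide library and the second combination library stood apart, in that mitochondrially encoded RNA took 22.6% and 24.9% of their counts. The share was 6.26% to 7.17% in control and 8.42% and 8.43% in the other teriflunomide libraries. It was 13.8% to 17.0% in the lurbinectedin group, and the other combination libraries had 13.1% and 14.6%. Of 9 listed neuroendocrine markers of small cell lung cancer, 5 passed the filter on low counts. Of the 9, INSM1, NCAM1 and GRP were at 0 counts in control, while NEUROD1 averaged 4.03 CPM and SYP 16.8 CPM. YAP1 averaged 246 CPM and WWTR1 58.8 CPM in control, the pair that marks the YAP1 type of this cancer. Their summed level was 294 to 321 CPM in control and 71.7 to 85.1 CPM with lurbinectedin, and it was 347 to 423 CPM with teriflunomide and 93.2 to 152 CPM with both drugs. The 9 neuroendocrine markers summed to 25.1 to 26.6 CPM in control and 24.1 to 25.2 CPM with teriflunomide, and to 42.5 to 45.4 CPM with lurbinectedin and 43.8 to 50.4 CPM with both drugs. With lurbinectedin 3 of the 5 tested were called higher and 1 lower, beside 36% and 35.7% of all genes tested. The 4 epithelial markers, nearly all of it KRT8, summed to 236 to 252 CPM in control, 196 to 307 CPM with teriflunomide, 400 to 433 CPM with lurbinectedin and 373 to 444 CPM with both drugs. Only KRT8 passed the filter on low counts. Its partner KRT18 did not, and EPCAM and CDH1 were at or near 0. The part of these marker shifts in the integrin differences below was not tested. The summed markers of leukocytes, fibroblasts and endothelial cells (4, 4 and 3 genes) did not pass 0.629 CPM in any library.

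ITGB1 led the family in control spheroids. To set genes beside each other, levels are given here as CPM (a gene's count relative to the scaled size of its library) per kilobase of counted exon, mean ± SD over 3 libraries. ITGB1 stood at 19.2 ± 0.76 CPM per kb, ITGAV at 8.18 ± 0.0997, ITGA5 at 5.31 ± 0.134 and ITGB5 at 5.03 ± 0.145. The laminin receptor subunit ITGA6 followed with 2.67 ± 0.206 CPM per kb. ITGB3 at 0.921 ± 0.0424, ITGA3 at 0.861 ± 0.0403 and ITGA2 at 0.453 ± 0.037 CPM per kb formed a lower tier, in which the libraries of ITGB3 and ITGA3 overlapped. At the bottom, ITGB8 had 0.0289 ± 0.00254 and ITGB4 0.0253 ± 0.00502 CPM per kb, with overlapping libraries. With lurbinectedin the order became ITGB1 (11.9 ± 0.274 CPM per kb), ITGA5 (9.14 ± 0.609), ITGAV (5.18 ± 0.327), ITGA3 (2.44 ± 0.224), ITGA6 (1.29 ± 0.109) and ITGB5 (0.976 ± 0.115). There ITGB3 kept 0.165 ± 0.0422 CPM per kb, and ITGB4, ITGA2 and ITGB8 lay at 0.0568 ± 0.0244, 0.0297 ± 0.0145 and 0.0149 ± 0.00727. With both drugs ITGA5 (9.34 ± 0.823 CPM per kb) and ITGAV (8.1 ± 1.52) overlapped, as did ITGA6 (1.51 ± 0.313) and ITGB5 (1.17 ± 0.339). The counted exons of ITGB1 add up to 14561 bases against 3784 in its longest coding transcript, so its level per length is understated. With transcript lengths in place of counted exon lengths, ITGA3 stood above ITGB3 in control, and ITGB1 remained first.

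**Figure D1:**
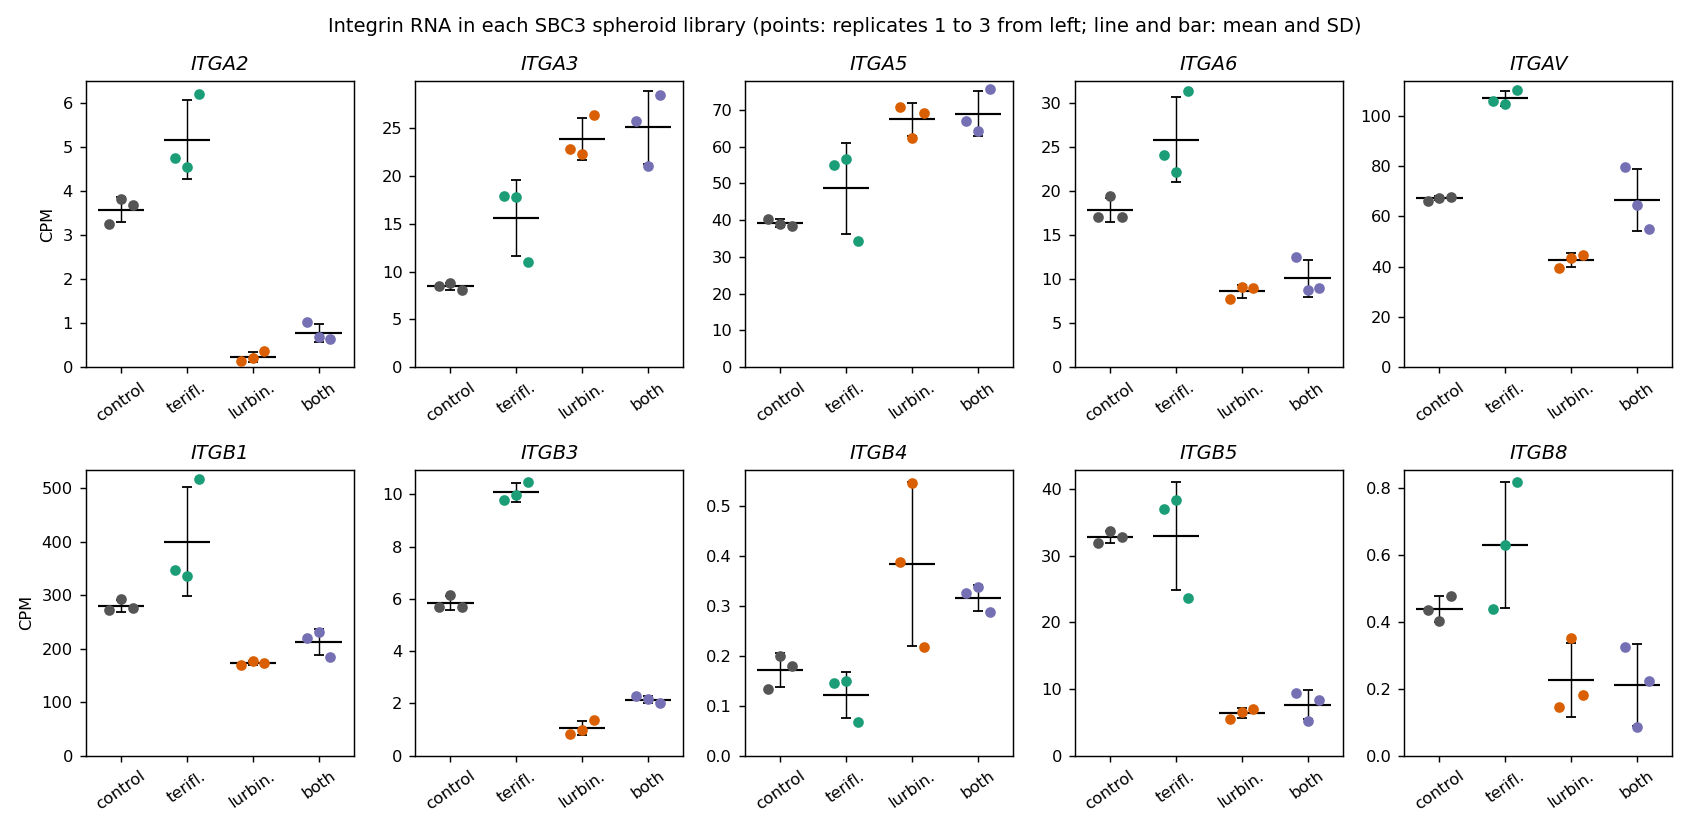
CPM of each of the 10 integrin genes (y axis, from 0, a separate scale in each panel) in the 12 libraries, by group (x axis), with points for libraries 1 to 3 and a line and bar for mean and SD. ITGA3 and ITGA5 are highest in the libraries exposed to lurbinectedin, while ITGA2, ITGB3 and ITGB5 are far lower there than in the other libraries.

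Teriflunomide alone went with more RNA of 3 members: ITGA3, ITGAV and ITGB3. They are 3 of the 9 members that could be tested, and 6.01% of all 16683 genes tested were called, 3.88% higher and 2.13% lower, at a Benjamini-Hochberg adjusted p under 0.05 in edgeR's quasi-likelihood test. No member was called lower. The median log2 fold change was 0.53 over the 9 members and 0.03 over all genes tested. All tests below use the same method and threshold, and ITGB4 was too low to be tested. Gaps between the libraries of groups are given below as description, since the share of all genes with such a gap was not counted.

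ITGAV, the alpha subunit of the RGD receptors, had 66.3, 67.4 and 67.9 CPM in control and 106, 105 and 110 CPM with teriflunomide. The groups were far apart and tight. It rose 1.59-fold, a log2 fold change of 0.67 (SE 0.121, adjusted p = 0.00717). Its partner ITGB3, known from the vitronectin receptor of platelets and osteoclasts, had 5.70, 6.15 and 5.68 CPM in control and 9.79, 9.97 and 10.5 CPM with teriflunomide. Here too no library of one group reached the other, and the gene rose 1.72-fold (log2 0.79, SE 0.143, adjusted p = 0.00727). ITGB3 lost the call without control library 1 (log2 0.77, adjusted p = 0.053) or 3 (log2 0.77, adjusted p = 0.059).

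ITGA3, a laminin receptor subunit, had 8.45, 8.83 and 8.04 CPM in control and 17.9, 17.8 and 10.97 CPM with teriflunomide. The third teriflunomide library was lowest of its group and still above every control. ITGA3 rose 1.85-fold (log2 0.89, SE 0.181, adjusted p = 0.0141), and without that library the log2 fold change was 1.08 (adjusted p = 6.99e-05). The call was lost when any 1 control library was left out, with log2 fold changes of 0.85 to 0.92 and adjusted p-values of 0.056 to 0.084. It was also lost when only the control and teriflunomide libraries were fitted (log2 0.86, adjusted p = 0.08).

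The other 6 tested members did not pass. ITGB1 had 272, 293 and 275 CPM in control and 346, 336 and 517 CPM with teriflunomide, a log2 fold change of 0.51 (SE 0.144, adjusted p = 0.0524). Its groups did not overlap, and the third teriflunomide library was the high one. Without it the log2 fold change was 0.28 (adjusted p = 0.056), and without teriflunomide library 1 or 2 it was called, at 0.61 (adjusted p = 0.034) and 0.63 (adjusted p = 0.037). ITGA6 (17.1, 19.4 and 17.0 against 24.1, 22.1 and 31.3 CPM) and ITGA2 (3.25, 3.81 and 3.67 against 4.75, 4.55 and 6.20 CPM) were also highest in that library. Their log2 fold changes were 0.53 (adjusted p = 0.066) for ITGA6 and 0.53 (adjusted p = 0.125) for ITGA2.

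For 2 members the third library went the opposite way. ITGA5, the fibronectin receptor subunit, had 40.2, 39.0 and 38.3 CPM in control and 55, 56.5 and 34.3 CPM with teriflunomide, so the groups overlapped through that library alone. Its log2 fold change was 0.31 (adjusted p = 0.236) with all libraries, and 0.51 (adjusted p = 0.002), past the threshold, without it. ITGB5 had 31.8, 33.7 and 32.8 CPM in control and 37, 38.3 and 23.7 CPM with teriflunomide, a log2 fold change of 0.01 (95% interval -0.42 to 0.44). Whether the high mitochondrial share of that library had a part in these values was not tested. ITGB8, with 13, 12 and 16 counts in control and 15, 21 and 24 with teriflunomide, had a log2 fold change of 0.50 (95% interval -0.28 to 1.28). When libraries were scaled by their total alone, which moved the median of all genes from 0.03 to -0.05, none of the 9 members was called with teriflunomide. ITGAV then had a log2 fold change of 0.59 (adjusted p = 0.073), ITGB3 0.70 (adjusted p = 0.068) and ITGA3 0.83 (adjusted p = 0.13).

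Lurbinectedin split the family. ITGA3 and ITGA5 rose, and ITGA2, ITGA6, ITGAV, ITGB1, ITGB3 and ITGB5 fell. That is 2 members higher and 6 lower of 9, where 71.6% of all genes were called, 36% higher and 35.7% lower, so the number of members called says nothing particular about them. Of all genes, 5999 were called higher and 5954 lower. Under scaling by library total alone these counts were 4313 and 6699, and 1 member was higher and 7 lower. The median log2 fold change of the members was -0.92, against 0.05 over all genes. In bulk RNA, fewer cells of a kind and less RNA per cell cannot be told apart, and a level is relative to the rest of the library.

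ITGA3 had 22.9, 22.4 and 26.4 CPM with lurbinectedin, all above the 8.04 to 8.83 CPM of control. It rose 2.83-fold (log2 1.501, SE 0.182, adjusted p = 4.83e-06). ITGA5 had 70.9, 62.4 and 69.1 CPM against 38.3 to 40.2 CPM in control and rose 1.72-fold (log2 0.78, SE 0.158, adjusted p = 0.000511). For both genes no lurbinectedin library reached the control range. Under scaling by library total alone, which moved the median of all genes to -0.18, ITGA5 had a log2 fold change of 0.55 and missed the threshold (adjusted p = 0.051).

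ITGA2, the collagen receptor subunit, fell most. It had 0.145, 0.195 and 0.363 CPM with lurbinectedin against 3.25 to 3.81 CPM in control. Its RNA was 14.5-fold lower (log2 -3.86, SE 0.297, adjusted p = 4.83e-08). ITGA6 had 7.75, 9.07 and 8.94 CPM against 17.0 to 19.4 CPM in control and fell 2.07-fold (log2 -1.05, SE 0.169, adjusted p = 7.1e-05). ITGAV had 39.6, 43.6 and 44.7 CPM and fell 1.58-fold (log2 -0.66, SE 0.123, adjusted p = 0.000267). None of these 3 alpha subunits had a lurbinectedin library that reached the control range. The share of all genes with such a gap was not counted with lurbinectedin, so the gaps carry no weight of their own.

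Of the beta subunits, ITGB3 had 0.824, 0.977 and 1.34 CPM with lurbinectedin against 5.68 to 6.15 CPM in control, a 5.48-fold fall (log2 -2.45, SE 0.175, adjusted p = 2.03e-08). ITGB5, which with ITGAV forms a vitronectin receptor, had 5.52, 6.57 and 6.98 CPM against 31.8 to 33.7 CPM and fell 5.14-fold (log2 -2.36, SE 0.22, adjusted p = 3.4e-07). The common partner ITGB1 lost far less than either of them. It had 169, 177 and 173 CPM against 272 to 293 CPM and fell 1.62-fold (log2 -0.69, SE 0.145, adjusted p = 0.000691).

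The remaining beta subunits were near the limit of detection. ITGB8, which activates latent TGF-beta, had 3, 9 and 5 counts with lurbinectedin against 12 to 16 in control, a log2 fold change of -0.92 (95% interval -1.89 to 0.04, adjusted p = 0.0796). It was called without lurbinectedin library 2 (log2 -1.40, adjusted p = 0.033) and under scaling by library total alone (log2 -1.15, adjusted p = 0.039). It was also called when only the groups compared were fitted, and without both libraries of high mitochondrial share. ITGB4, the hemidesmosome subunit, had 4, 6 and 6 counts in control, and teriflunomide gave 5, 5 and 2. Lurbinectedin gave 8, 14 and 6 counts, and both drugs 9, 8 and 9. With no filter on low counts its log2 fold change with lurbinectedin was 1.06 (SE 0.544, adjusted p = 0.125), so no difference was detectable at this depth.

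**Figure D2:**
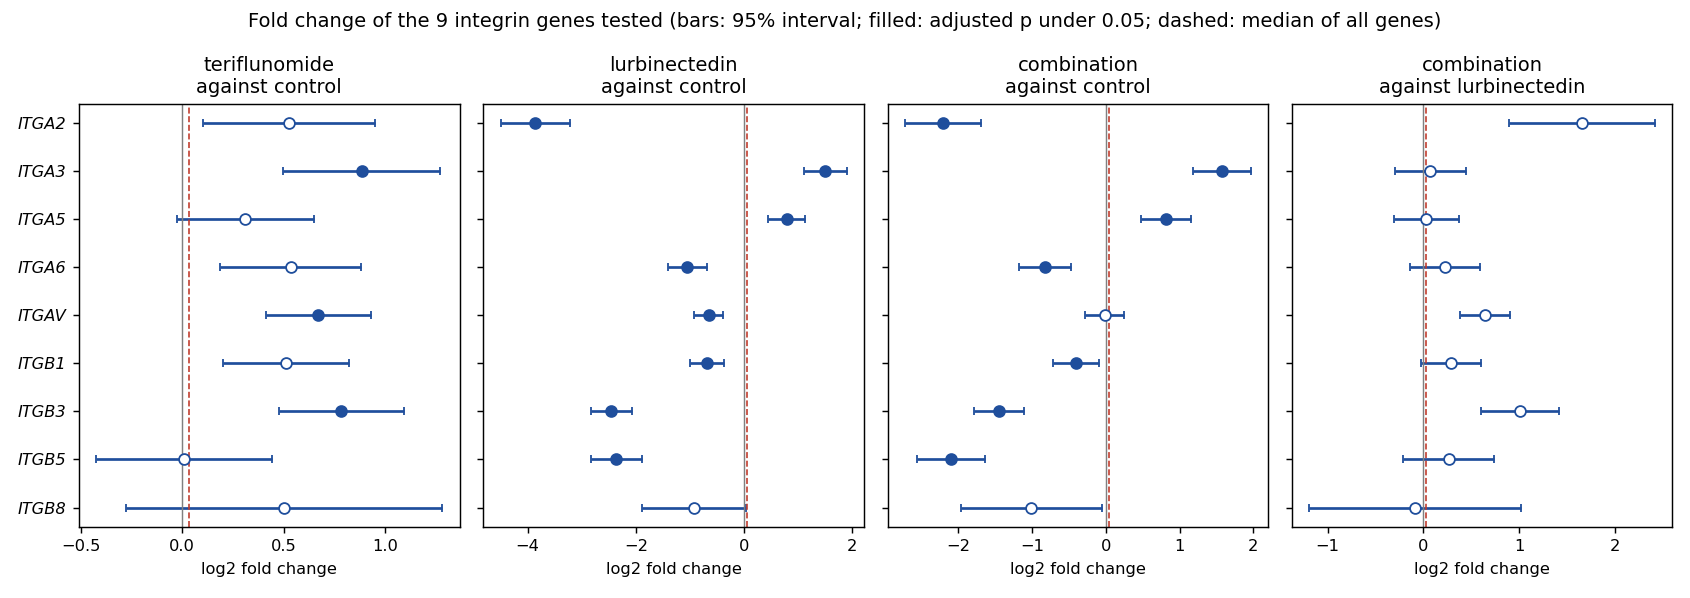
Log2 fold change of the 9 tested members (x axis, a separate scale in each panel) in 4 comparisons, with 95% intervals; filled points passed an adjusted p of 0.05 and the dashed line is the median of all genes. With lurbinectedin, ITGA3 and ITGA5 lie right of 0 and the other 7 members left of it, and with both drugs ITGAV lies at -0.01.

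The fold changes with lurbinectedin also ran with gene size. Both members that rose are the shortest tested ones, ITGA5 spanning 24 kb and ITGA3 34.5 kb of the genome. The members that fell span 59.9 kb (ITGB3) to 139.5 kb (ITGB5). Among these, size and fall did not go in step. ITGB3, the shortest of them, had a log2 fold change of -2.45, and ITGB1, at 118.5 kb, had -0.69. Over all genes tested, split into 5 equal groups by span, the median log2 fold change with lurbinectedin went from 0.70 in the shortest group to 0.62, 0.28, -0.36 and -1.86 in the longest. ITGA3 lay 1.22 above the median of its span group on the log2 scale and ITGA5 0.50 above it. ITGAV, at 90.8 kb, lay 1.2 above its group's median, although it fell, and ITGA2, at 105.4 kb, lay 2.001 below it. Of the members, ITGB3 lay furthest below the median of its own span group, by 2.10 (log2 difference of -2.10). Across the 9 members Spearman's rho between span and log2 fold change was -0.47, and across all 19 integrin genes tested it was -0.78. These genes were measured in the same libraries, so the correlations are descriptions. With teriflunomide the corresponding values were -0.40 and 0.30. The part of gene length in these differences was not tested.

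**Figure D3:**
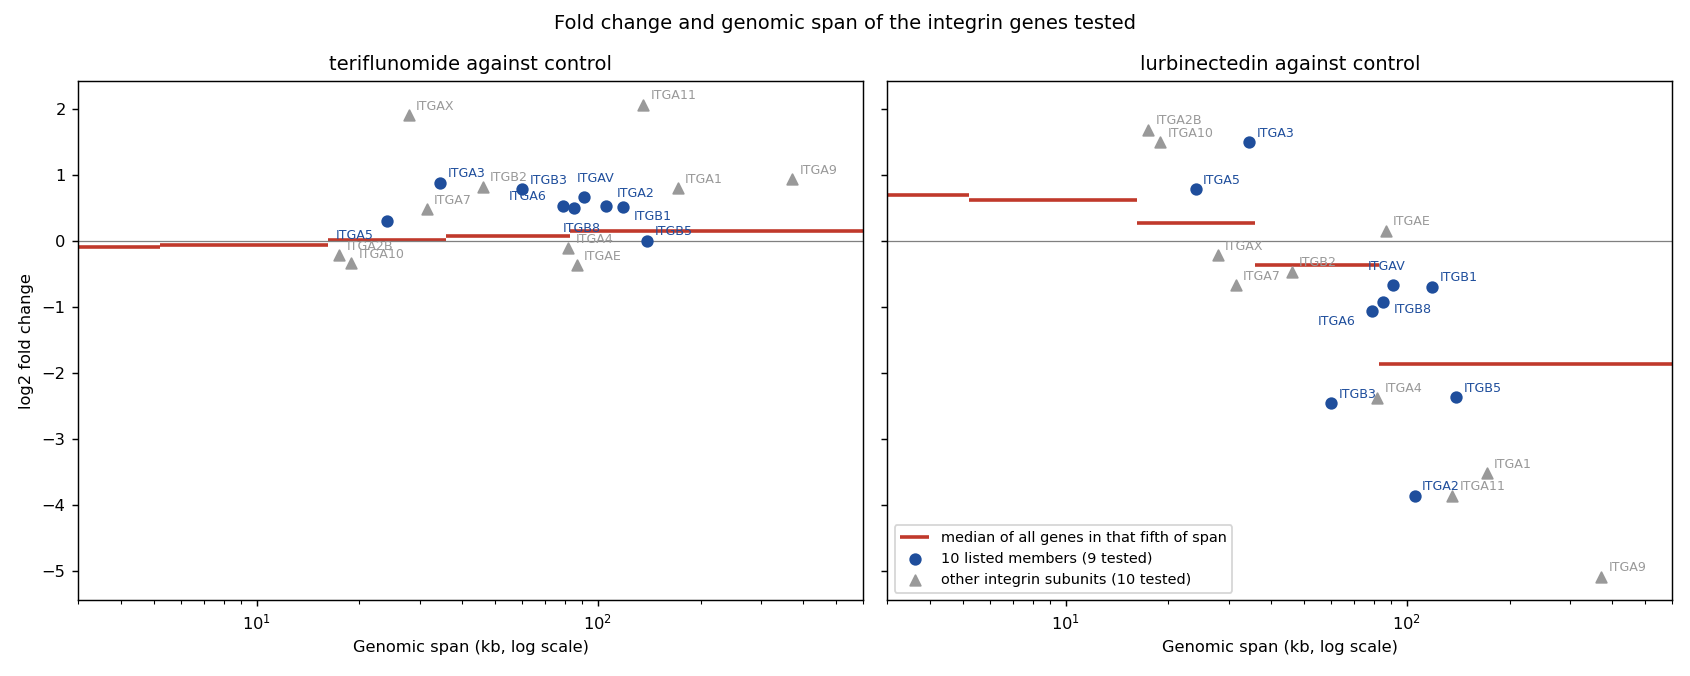
Log2 fold change (y axis) against genomic span in kb (x axis, log scale) for the 9 members tested (circles) and the 10 other integrin subunits tested (triangles), for teriflunomide and for lurbinectedin against control, with horizontal lines at the median of all genes in each of 5 span groups. With lurbinectedin the all-gene median drops to -1.86 in the longest group, and ITGAV and ITGB1 lie above that line while ITGA2 and ITGB5 lie below it.

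With both drugs the members called against control were those called with lurbinectedin, save ITGAV. ITGA3 and ITGA5 were higher and ITGA2, ITGA6, ITGB1, ITGB3 and ITGB5 lower, 2 and 5 of 9 members, beside 34.1% and 34.4% of all genes (68.4% together). The combination and lurbinectedin groups are compared here with the same control libraries, so the likeness is partly built in. A call for ITGAV in only one of these comparisons is not itself a difference between the groups. Compared directly, no gene was called, and ITGA2 (log2 1.66) and ITGB3 (1.01) differed more than ITGAV (0.64). ITGAV had 79.9, 64.7 and 55.1 CPM with both drugs, on either side of the 66.3 to 67.9 CPM of control. Its log2 fold change was -0.01, with a 95% interval of -0.28 to 0.25, that is between 0.826-fold and 1.19-fold. The sign of that value changed without combination library 3 (0.10), and none of these values was called.

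ITGA3 had 25.8, 21.0 and 28.6 CPM and was 2.98-fold higher than control (log2 1.58, SE 0.182, adjusted p = 3.5e-06). ITGA5 had 66.9, 64.2 and 75.8 CPM and was 1.76-fold higher (log2 0.82, SE 0.158, adjusted p = 0.00041). No library of the combination overlapped with control for these receptors of laminin and fibronectin. ITGA2 had 1.01, 0.674 and 0.638 CPM and was 4.6-fold lower (log2 -2.20, SE 0.24, adjusted p = 2.04e-06). ITGB3 had 2.28, 2.15 and 2.01 CPM and was 2.72-fold lower (log2 -1.44, SE 0.158, adjusted p = 2.01e-06). Both lay well under the controls and above every lurbinectedin library. ITGB5 had 9.45, 5.18 and 8.30 CPM and was 4.27-fold lower (log2 -2.09, SE 0.215, adjusted p = 1.13e-06), and its range enclosed that of lurbinectedin alone. ITGA6 had 12.5, 8.72 and 9.03 CPM and was 1.77-fold lower (log2 -0.82, SE 0.167, adjusted p = 0.000587). ITGB1 had 219, 231 and 184 CPM and was 1.32-fold lower (log2 -0.40, SE 0.145, adjusted p = 0.023). The ITGB1 call was lost without control library 2 (log2 -0.38, adjusted p = 0.067) or combination library 3 (log2 -0.31, adjusted p = 0.092). ITGB8, with 9, 2 and 7 counts, had a log2 fold change of -1.01 (adjusted p = 0.0568). It passed without combination library 1 (log2 -1.42, adjusted p = 0.028) and under scaling by library total alone.

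Lurbinectedin added to teriflunomide moved every tested member: 2 higher (ITGA3 and ITGA5) and 7 lower, beside 35.2% and 35.8% of all genes (70.9% together). ITGA3 was 1.61-fold higher than with teriflunomide alone (log2 0.69, adjusted p = 0.00301) and ITGA5 1.42-fold (log2 0.50, adjusted p = 0.0106). Both of these calls were lost under scaling by library total alone, at log2 0.59 (adjusted p = 0.058) for ITGA3 and 0.40 (adjusted p = 0.14) for ITGA5. The ITGA5 call was also lost when only the groups compared were fitted (log2 0.51, adjusted p = 0.052), and without teriflunomide library 3 its log2 fold change was 0.30 (adjusted p = 0.0075). The 7 that fell ranged from a log2 fold change of -0.69 for ITGAV (adjusted p = 0.000175) to -2.73 for ITGA2 (adjusted p = 1.89e-07), with ITGB1 at -0.92, ITGA6 at -1.36, ITGB8 at -1.51, ITGB5 at -2.10 and ITGB3 at -2.23. ITGB8 rests on few counts, and without both libraries of high mitochondrial share its value was -0.97 (adjusted p = 0.062).

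Teriflunomide added to lurbinectedin gave no call in any gene with edgeR, 0% of those tested, and so none among the members. At an unadjusted p under 0.05 there were 2599 of the 16683 genes tested, and 3 of the 9 members. The 3 largest values were those of ITGA2, ITGB3 and ITGAV. ITGA2 had 0.145 to 0.363 CPM with lurbinectedin and 0.638 to 1.01 CPM with both drugs, a log2 difference of 1.66 (95% interval 0.89 to 2.42, adjusted p = 0.151). ITGB3 had 0.824 to 1.34 CPM and 2.01 to 2.28 CPM, a difference of 1.01 (95% interval 0.61 to 1.41, adjusted p = 0.145). ITGAV had 39.6 to 44.7 CPM and 55.1 to 79.9 CPM, a difference of 0.64 (95% interval 0.38 to 0.91, adjusted p = 0.145). For each of these 3 genes no library of one group reached the other. The share of all genes with such a gap was not counted, so nothing is drawn from it. Without combination library 2, the one with the high mitochondrial share, all 3 passed: ITGA2 at log2 1.74 (adjusted p = 0.048), ITGB3 at 1.01 (adjusted p = 0.039) and ITGAV at 0.67 (adjusted p = 0.040), in a fit that called 259 genes. DESeq2, with all libraries, called the same 3 members and 558 genes. ITGA3 (log2 0.07, 95% interval -0.30 to 0.45) and ITGA5 (0.03, -0.30 to 0.37) were close to 0, and ITGB1 (0.29, -0.02 to 0.60), ITGA6 (0.23, -0.14 to 0.60), ITGB5 (0.27, -0.21 to 0.74) and ITGB8 (-0.09, -1.19 to 1.02) had intervals that included 0.

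The interaction asks whether the effect of teriflunomide differed with and without lurbinectedin. It was called in 0.258% of all genes, 0.036% higher and 0.222% lower, and in none of the 9 members. At an unadjusted p under 0.05 there were 2 of the members, beside 1726 of the 16683 genes tested. DESeq2 called no member either. ITGAV had an interaction of -0.03 on the log2 scale (95% interval -0.40 to 0.34), so its effects of teriflunomide, 0.67 without and 0.64 with lurbinectedin, differed by no more than this interval allows. ITGB3 had 0.22 (95% interval -0.28 to 0.73) and ITGA2 1.13 (0.24 to 2.02, adjusted p = 0.365). The largest negative value was that of ITGA3, -0.81 (95% interval -1.35 to -0.27, adjusted p = 0.266). Leaving out teriflunomide library 3 turned 2 of these into calls: ITGA3 at -0.999 (adjusted p = 0.0044) and ITGA5 at -0.47 (adjusted p = 0.045), where all libraries gave ITGA5 -0.28 (adjusted p = 0.736). In that fit, 616 genes were called, against 43 with all libraries. Those 43 were 6 higher and 37 lower, and scaling by library total alone gave 2 and 4.

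The makeup of the family changed with these differences. Expressed as shares of the summed CPM per kb of the 5 alpha members, ITGAV took 46.8% ± 0.881 in control, 50.7% ± 3.22 with teriflunomide, 28.7% ± 1.79 with lurbinectedin and 37.4% ± 5.27 with both drugs (mean ± SD over 3 libraries). ITGA5 went the other way, with 30.4% ± 0.91, 25.5% ± 5.76, 50.6% ± 2.66 and 43.4% ± 4.73. ITGA3 took 4.93% ± 0.165 in control and 13.5% ± 0.699 with lurbinectedin. ITGA6 took 15.3% ± 0.939 in control and 7.12% ± 0.664 with lurbinectedin. The alpha sum itself was 17.5 ± 0.266 CPM per kb in control, 25.7 ± 0.914 with teriflunomide, 18.1 ± 0.74 with lurbinectedin and 21.6 ± 1.68 with both. The control and lurbinectedin sums overlapped, while the beta sum went from 25.2 ± 0.94 in control to 34.2 ± 5.79, 13.1 ± 0.394 and 16.1 ± 1.56. ITGB1 made up 76.2% ± 0.228 of the beta sum in control and 90.8% ± 0.918 with lurbinectedin, and ITGB5 19.9% ± 0.265 and 7.43% ± 0.712. With teriflunomide, ITGB5 took 18.3% and 19.2% in the first and second library and 8.90% in the third. These shares depend on the length used. Per kilobase of the longest coding transcript, ITGB1 made up 89.1% ± 0.121 of the beta sum in control and 96.2% ± 0.414 with lurbinectedin, and ITGB5 9.03% ± 0.135 and 3.05% ± 0.31. On that scale ITGAV took 40.3% ± 0.836 of the alpha sum in control and 21.9% ± 1.54 with lurbinectedin, ITGA5 37.2% ± 0.981 and 54.8% ± 2.49, and ITGA3 7.27% ± 0.236 and 17.6% ± 0.915. The alpha sum was then 23.7 ± 0.35 CPM per kb of transcript in control and 27.7 ± 1.25 with lurbinectedin, and the libraries did not overlap.

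**Figure D4:**
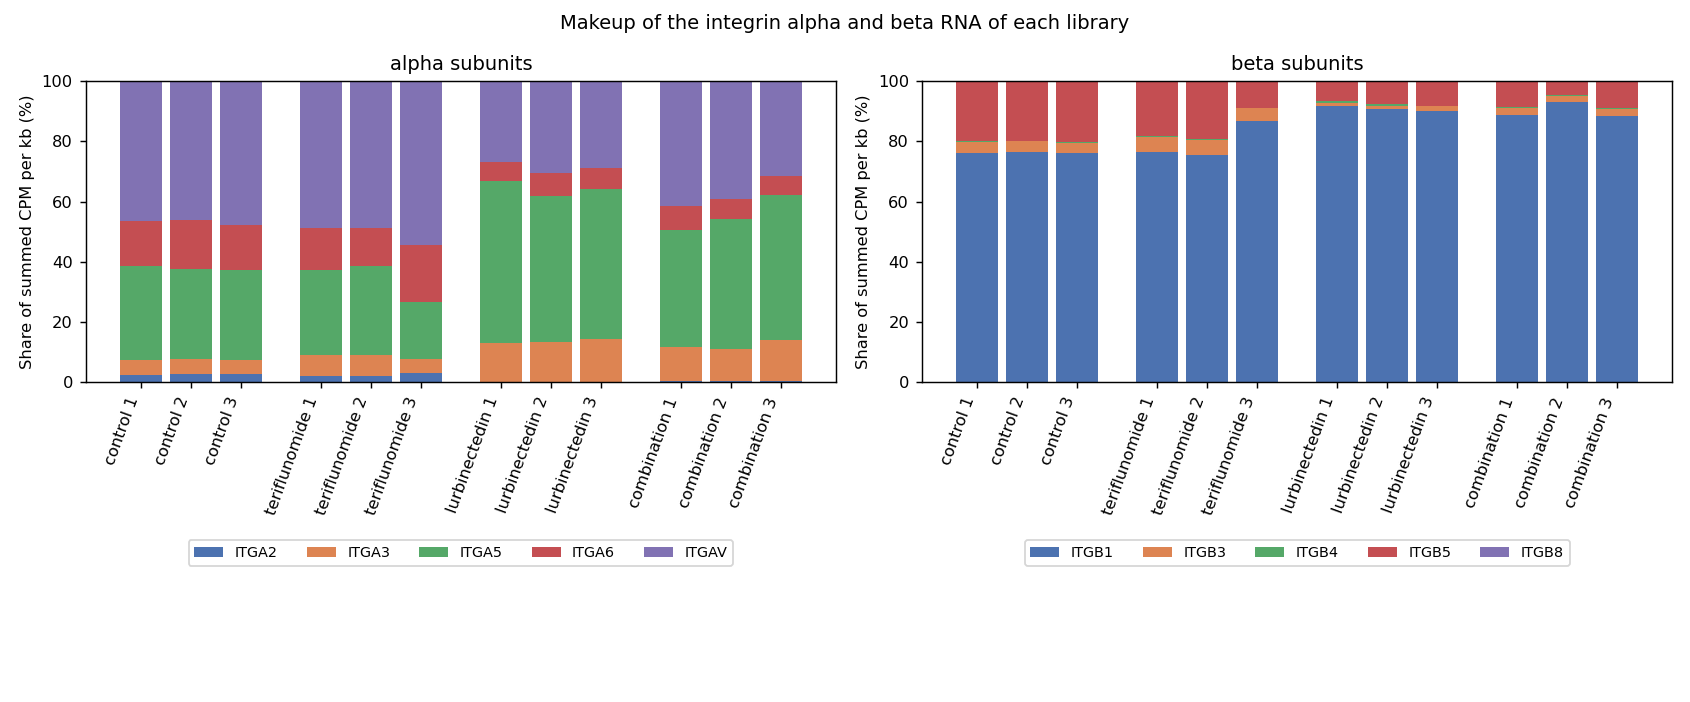
Share of the summed CPM per kb (y axis, percent) taken by each of the 5 alpha members (left) and 5 beta members (right) in each library (x axis). ITGA5 takes the largest alpha share in the 3 lurbinectedin libraries, ITGAV in the 3 control libraries, and ITGB1 holds over 75% of the beta sum in every library.

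Across the 12 libraries, Pearson's r of log2 CPM was 0.956 between ITGA3 and ITGA5. It was 0.691 to 0.990 over the 21 pairs of the other 7 tested members and -0.785 to -0.362 over the 14 pairs that join ITGA3 or ITGA5 with one of those 7. The libraries fall into treatment groups, so these values describe the group pattern and carry no p-value. Among all genes tested, the patterns most like those of the 3 members highest per length were UBA3 (r = 0.993) and SHOC2 (0.993) for ITGB1, LEPROT (0.981) and TMEM30A (0.971) for ITGAV, and SMPD1 (0.989) and SLC22A17 (0.978) for ITGA5. Such likeness was common for ITGB1, with 373 genes above an r of 0.95, and rarer for ITGA5, with 78, and ITGAV, with 21.

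Beyond the 10 members, 16 other integrin subunits were listed and 10 of them passed the filter on low counts. With teriflunomide 2 rose and none fell, beside 3.88% and 2.13% of all genes, with a median log2 fold change of 0.65 (0.03 over all genes). ITGA11, a fibrillar collagen receptor subunit, had 0.670, 0.368 and 0.329 CPM in control and 2.14, 1.89 and 1.70 CPM with teriflunomide, a 4.20-fold rise (log2 2.07, SE 0.29, adjusted p = 0.00156). ITGAX, a leukocyte integrin subunit, had 0.402, 0.267 and 0.448 CPM in control and 1.29, 1.83 and 1.12 CPM, a 3.75-fold rise (log2 1.91, SE 0.33, adjusted p = 0.00578). Both levels are low, and the leukocyte marker PTPRC had 1, 0 and 1 counts in the control libraries. Without the third teriflunomide library ITGA7 (log2 0.73, adjusted p = 0.010) and ITGB2 (log2 1.23, adjusted p = 0.011) passed as well, where all libraries gave 0.49 (adjusted p = 0.217) and 0.83 (adjusted p = 0.235).

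With lurbinectedin 2 of the 10 rose and 5 fell, beside 36% and 35.7% of all genes, with a median of -0.57 (0.05 over all genes). ITGA2B (log2 1.69, adjusted p = 0.0018) and ITGA10 (log2 1.5, adjusted p = 0.00379) rose to 1.01 and 0.861 CPM. ITGA4, which binds fibronectin and VCAM1, fell 5.18-fold, from 26.6 ± 0.32 to 5.14 ± 0.54 CPM (log2 -2.37, SE 0.16, adjusted p = 1.02e-08). The collagen receptor subunit ITGA1 fell 11.4-fold (log2 -3.52, adjusted p = 1.03e-06). ITGA9 and ITGA11 almost vanished. ITGA9 went from 56 counts over the 3 control libraries to 1, a scaled ratio of 44.3 with a 95% exact interval of 7.63 to 1780, and ITGA11 from 42 counts to 2, a ratio of 16.6 with an interval of 4.32 to 142. These intervals cover counting error only. The laminin receptor subunit ITGA7 fell 1.59-fold (log2 -0.67, adjusted p = 0.028) and lost the call without control library 2 or 3 or lurbinectedin library 1 or 3 (log2 -0.60 to -0.69, adjusted p 0.054 to 0.09). ITGAE (log2 0.16, adjusted p = 0.354), ITGAX (-0.21, adjusted p = 0.668) and ITGB2 (-0.47, adjusted p = 0.407) were not called, and the value of ITGAE changed sign under scaling by library total alone (-0.08). Against control, the combination gave 2 higher and 4 lower of the 10, beside 34.1% and 34.4% of all genes.

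The ligands were counted from lists, whose median log2 fold changes stand beside 0.03 with teriflunomide and 0.05 with lurbinectedin over all genes. The shares of all genes called higher and lower, against which each list's counts are to be read, were 3.88% and 2.13% for teriflunomide. For lurbinectedin they were 36% and 35.7%, and for both drugs 34.1% and 34.4%. Of 8 laminin genes tested, 1 was higher and none lower with teriflunomide, 2 higher and 4 lower with lurbinectedin, and 1 higher and 4 lower with both drugs. Their median was 0.28 with teriflunomide and -1.32 with lurbinectedin. LAMC1, the gamma chain of most laminins, rose with teriflunomide from 228 ± 7.7 to 344 ± 47 CPM (log2 0.59, SE 0.12, adjusted p = 0.015) and fell with lurbinectedin to 91.8 ± 9.1 CPM (log2 -1.31, adjusted p = 4.43e-07). The rise was not called when any 1 control library was left out (log2 0.57 to 0.61, adjusted p 0.063 to 0.083). LAMB1 (log2 -1.34, adjusted p = 7.31e-07) and LAMC3 (-1.54, adjusted p = 3.88e-06) fell with lurbinectedin. Of 12 collagen genes, none was called with teriflunomide by edgeR or DESeq2. At an unadjusted p under 0.05 there was 1 of them, beside 4143 of the 16683 genes tested. With lurbinectedin 10 of the 12 fell and none rose, and with both drugs 10 fell and 1 rose. Their median log2 fold change with lurbinectedin was -1.97. In the group of all genes with the longest spans, to which COL4A1, COL4A2 and COL5A1 belong, 83.6% were called lower. The basement membrane collagens COL4A1 and COL4A2 fell 8.38-fold (103 ± 4.8 to 12.2 ± 1.2 CPM) and 8.77-fold (348 ± 11 to 39.7 ± 3.3 CPM), and COL5A1 fell 11.3-fold (90.9 ± 5.1 to 7.98 ± 1.6 CPM, adjusted p = 1.89e-09).

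Of 12 genes for RGD and other matricellular ligands, 4 rose with teriflunomide and none fell, with a median log2 fold change of 0.64. They were FN1 (fibronectin), THBS1 (thrombospondin 1), SPP1 (osteopontin) and NPNT (nephronectin). FN1 had 83.4, 87.9 and 93.2 CPM in control and 109, 119 and 141 CPM with teriflunomide (log2 0.48, SE 0.12, adjusted p = 0.0294). NPNT had 1.07, 1.0 and 0.747 CPM in control and 2.49, 3.11 and 4.67 CPM with teriflunomide (log2 1.86, SE 0.26, adjusted p = 0.00179), and the call held whichever library was left out. The FN1 call was lost when any 1 control library, or teriflunomide library 2, was left out (log2 0.44 to 0.52, adjusted p 0.055 to 0.14). THBS1 (17.6 ± 0.94 to 27.4 ± 2.5 CPM, log2 0.64, adjusted p = 0.0142) lost it when any 1 control library was left out (log2 0.60 to 0.68, adjusted p 0.054 to 0.093). SPP1, with 11, 3 and 6 counts in control and 19, 34 and 38 with teriflunomide (log2 2.12, adjusted p = 0.0162), lost it without control library 2 (log2 1.80, adjusted p = 0.085) or 3 (log2 2.0, adjusted p = 0.097).

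With lurbinectedin 5 of these 12 rose and 6 fell, with a median of -0.76. The rises include CCN1 and CCN2, matricellular proteins that bind several integrins and are known targets of YAP1, and MFGE8, a ligand of the ITGAV receptors. CCN1 had 6.67, 7.82 and 7.71 CPM in control and 70.7, 72.5 and 69.7 CPM with lurbinectedin, a 9.58-fold rise (log2 3.26, SE 0.14, adjusted p = 2.72e-10). CCN2 rose 19.1-fold (1.79 ± 0.41 to 34 ± 1.7 CPM, adjusted p = 1.27e-09) and MFGE8 6.15-fold (18.3 ± 0.6 to 112 ± 5.2 CPM, adjusted p = 3.25e-09). THBS1 rose 2.09-fold (adjusted p = 5.89e-06), while FN1 fell 2.83-fold to 31.1 ± 0.22 CPM (adjusted p = 7.09e-08). SPP1 went from 20 counts over the control libraries to 1 with lurbinectedin, a scaled ratio of 15.8 with a 95% exact interval of 2.53 to 656. With both drugs 5 were higher and 5 lower than control. Of 8 genes for latent TGF-beta and its carriers, which ITGAV receptors activate, none was called with teriflunomide by edgeR and 1 by DESeq2, and 3 rose and 4 fell with lurbinectedin (median -0.24). LTBP1, which tethers latent TGF-beta to the matrix, fell 86.7-fold from 21.5 ± 1.2 to 0.238 ± 0.23 CPM (adjusted p = 7.73e-10), TGFB2 5.96-fold (adjusted p = 1.08e-05) and LTBP2 5.21-fold (adjusted p = 5.6e-07). The combination gave 2 higher and 4 lower.

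Inside the cell, no talin, kindlin or other activator was called with teriflunomide by edgeR or DESeq2, and with lurbinectedin 1 of 7 tested rose and 4 fell (median log2 fold change -0.61). TLN2, talin 2, fell 102-fold from 45.5, 46.2 and 47.2 CPM to 0.533, 0.313 and 0.509 CPM (log2 -6.68, SE 0.23, adjusted p = 5.52e-11). FERMT2, kindlin 2, fell 2.73-fold (67.8 ± 3.6 to 24.8 ± 1.2 CPM, adjusted p = 9.96e-08), and RAP1A, a small GTPase that recruits talin, 2.96-fold (adjusted p = 1.76e-06). Of 9 inactivators and other binders of integrin tails, none was called with teriflunomide by edgeR and 1 by DESeq2, and 2 rose and 4 fell with lurbinectedin (median 0.15). KRIT1 fell 2.59-fold (adjusted p = 1.02e-06). ITGB3BP fell 2.66-fold (adjusted p = 9.87e-06), a gene named for binding ITGB3 that also encodes a centromere protein.

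Of 16 adaptors and actin linkers, none was called with teriflunomide by edgeR or DESeq2. With lurbinectedin 3 rose and 9 fell (median -0.57), where 36% of all genes were called higher and 35.7% lower. VCL, vinculin, fell 3.78-fold from 116 ± 2.3 to 30.8 ± 1.9 CPM (adjusted p = 1.92e-09), TNS3, a tensin, 9.49-fold (adjusted p = 2.96e-09) and RSU1, a partner of the PINCH adaptors, 31.1-fold (adjusted p = 3.72e-09). Of 18 adhesion kinases and their effectors, 1 rose with teriflunomide, and 6 rose and 9 fell with lurbinectedin (median -0.24). PTK2, which encodes focal adhesion kinase, had 272, 281 and 270 CPM in control and 10.4, 9.66 and 10.2 CPM with lurbinectedin, a 27.3-fold fall (log2 -4.77, SE 0.21, adjusted p = 2.92e-10). With teriflunomide it had 267, 276 and 317 CPM (log2 0.06, adjusted p = 0.85). DOCK1, an activator of the GTPase RAC1, fell 49.6-fold (adjusted p = 1.98e-11) and the SRC family kinase FYN 16.2-fold (adjusted p = 1.83e-08). In this and the other lists, these genes are named for the smallest adjusted p with lurbinectedin. Of all genes with the longest spans, 83.6% were called lower with lurbinectedin, and their median log2 fold change was -1.86. The part of gene span in the falls of the named genes was not tested. The gene that rose with teriflunomide, the GTPase activator GIT2 (log2 0.43, adjusted p = 0.0363), lost its call when any 1 control library was left out (log2 0.41 to 0.45, adjusted p 0.13 to 0.15). With both drugs the adaptors counted 3 higher and 8 lower, and the kinases 6 and 9. Activators counted 1 and 4, and tail binders 1 and 4.

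Of 9 membrane partners, 5 rose and 1 fell with lurbinectedin, beside 36% and 35.7% of all genes, and the median log2 fold change was 0.52. SLC3A2, the CD98 heavy chain that binds integrin beta tails, rose 2.86-fold (79.4 ± 3.6 to 227 ± 18 CPM, adjusted p = 8.37e-05) and BSG, basigin, 1.75-fold (559 ± 8.7 to 980 ± 75 CPM, adjusted p = 9.25e-05). The gene that fell was CD47, a partner of the ITGAV and ITGB3 receptor and a thrombospondin receptor. CD47 had 30.8, 32.1 and 31.2 CPM in control, 51.0, 52.7 and 52.7 CPM with teriflunomide and 11.5, 14.5 and 11.7 CPM with lurbinectedin. It rose 1.66-fold with teriflunomide (log2 0.73, SE 0.14, adjusted p = 0.00954) and fell 2.49-fold with lurbinectedin (log2 -1.32, adjusted p = 1.76e-06). The rise lost its call without control library 1 (log2 0.72, adjusted p = 0.058) or 3 (log2 0.73, adjusted p = 0.06). No other membrane partner was called with teriflunomide, and with both drugs 4 were higher and 1 lower than control.

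All 4 hemidesmosome partners of ITGB4 were tested although ITGB4 itself was not. COL17A1, a hemidesmosomal collagen, was abundant at 265 ± 10 CPM in control and rose 1.22-fold with lurbinectedin (log2 0.29, adjusted p = 0.00797), a difference that was 0.06 under scaling by library total alone (adjusted p = 0.72). DST, which encodes the plakin BPAG1 among other forms, rose 2.22-fold with teriflunomide (15.3, 14.3 and 15.4 to 24.7, 29.4 and 45.9 CPM, log2 1.15, adjusted p = 0.0158) and fell 3.69-fold with lurbinectedin (adjusted p = 1.97e-05). The rise was not called when any 1 control library was left out (log2 1.12 to 1.17, adjusted p 0.073 to 0.078). ERBIN, a scaffold that binds BPAG1 and ERBB2, fell 5.21-fold with lurbinectedin (adjusted p = 9.54e-08). With both drugs 1 partner was higher and 2 lower than control. Of 15 genes for integrin uptake and recycling, none was called with teriflunomide by edgeR and 1 by DESeq2, 5 rose and 6 fell with lurbinectedin (median -0.03), and 4 rose and 6 fell with both drugs. The endocytic adaptor NUMB fell 8.89-fold (adjusted p = 6.99e-09), the adaptor STON1 4.15-fold (adjusted p = 9.31e-07) and clathrin heavy chain CLTC 1.61-fold (628 ± 26 to 390 ± 18 CPM, adjusted p = 5.16e-06).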

How the data were processed

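Polyadenylated RNA of 12 SBC3 spheroid libraries was sequenced, and 1 table of raw read counts per gene for each library was deposited by the authors. Per the submitters' processing notes, fastp 0.23.2, STAR 2.7.9, Subread and featureCounts were used with hg38. Strand use and the handling of multi-mapping reads are not given in the sources used here. Reads of ITGA5, ITGA6, ITGB1 and ITGB8 therefore cannot be told apart from those of the overlapping GPR84-AS1, PDK1-AS1 and ITGA6-AS1, ITGB1-DT and ITGB8-AS1. The same holds for ITGAV and ITGB3 and the genes without a symbol that share their exon bases, on the same strand for ITGB3. Per the file headers, the deposited tables also hold a length of counted exons per gene, another quantity than the counts, which was used for CPM per kb. Symbols were matched for 99.7% of 60649 identifiers, and the ends of the 37318 identifiers shared with GENCODE 29 were identical, so GRCh38 coordinates apply.

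Genes were kept by filterByExpr (16683 genes), scaled by TMM and fitted with edgeR 4.0.16 in R 4.3.3 as a robust quasi-likelihood model with 1 mean per group over all 12 libraries (8 residual degrees of freedom, biological coefficient of variation 14.5%). The 6 contrasts were each adjusted over all genes by the Benjamini-Hochberg method. Standard errors and 95% intervals came from the F statistic. The script was tested on simulated data. CPM are counts over effective library size. The depth of 23206414 to 33222162 counts leaves ITGB4 and ITGB8 with few counts, and intervals cover counting error only where so stated. Alternatives were other scalings and filters, DESeq2 1.42.0, only the groups compared, a replicate block, a threshold of 0.01, no mitochondrial genes, each library left out, and 2 added after seeing the data.

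The members and gene lists were chosen with earlier results of these data known. Named genes are all members, all other integrin subunits tested, up to 3 genes per list with the smallest adjusted p with lurbinectedin, any list gene called with teriflunomide or in the interaction, and the 2 genes nearest in pattern to each of 3 members. Not every gene selected in this way is reported here. The starts shown were chosen after their values were seen, leaving out ITGA5, of which 194 bases lie in a UTR.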

Additional observations from a re-analysis of the deposited data

How the results depend on the processing

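Of the members' values over all alternatives, 820 kept direction and side of the threshold, 36 gained a call, 19 lost one and 24 changed sign, all of the last being uncalled. Depth limits ITGB4 and ITGB8, and 3 libraries a group limit the rest.

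Genes called with teriflunomide (1002) numbered 230 at an adjusted p under 0.01, 265 under scaling by library total, 1800 without a filter, 415 with a replicate block, 283 with only the groups compared, 1796 in DESeq2, 2757 without teriflunomide 3 and combination 2 together (an alternative chosen after seeing the data), and 216 to 1555 without 1 library (216, 248 and 265 without control 3, 1 and 2, 644 without teriflunomide 2, 1555 without teriflunomide 3). For the combination against lurbinectedin (0 called) they numbered 612 without a filter, 94 with only those groups, 558 in DESeq2, 3640 without both libraries and 0 to 259 without 1. For the interaction (43) they were 5 at 0.01, 6 by library total, 195 without a filter, 8 with a replicate block, 226 in DESeq2, 1839 without both libraries and 2 to 616 without 1.

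Members called with teriflunomide (3) were 0 by library total, 2 at an adjusted p under 0.01, 2 with only the groups compared, 5 without a filter, 5 in DESeq2, 6 without both libraries and 1 to 4 without 1. For the combination against lurbinectedin (0) they were 3 without a filter, 1 with only those groups, 3 in DESeq2, 5 without both libraries and 0 to 3 without 1. For the interaction (0) they were 3 without both libraries and 0 to 2 without 1. Without mitochondrial genes no count of members called changed. The cause of these changes was not tested.

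No pairing of libraries by the replicate numbers of the labels was detected. Of 18 same-numbered pairs, 1 had a correlation of deviations over 0.1 (range -0.402 to 0.144), and 2 of 12 libraries correlated best with their own number. The deviations include those of the libraries of high mitochondrial share, so a weak pairing could be missed. With the replicate block, the members called did not change in number.

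Sign changes, all uncalled, were as follows on the log2 scale. With teriflunomide, ITGA2B ranged from -0.59 to 0.38 without 1 library (above 0 without control 1 or teriflunomide 1). ITGB5 ranged from -0.11 to 0.20 (below 0 without control 1, teriflunomide 1 or teriflunomide 2) and had -0.042 by library total, -0.011 without a filter, -0.015 with only the groups compared and -0.0010 in DESeq2. ITGAE with lurbinectedin had -0.075 by library total. For the combination against lurbinectedin, the ranges without 1 library were -0.029 to 0.19 for ITGA3 (below 0 without combination 3), -0.042 to 0.084 for ITGA5 (below 0 without lurbinectedin 2 or combination 3) and -0.49 to 0.38 for ITGB8 (above 0 without lurbinectedin 2 or combination 2, and 0.24 without both libraries). ITGAV in the combination against control ranged from -0.17 to 0.10 (above 0 without combination 3) and had 0.033 with a filter at 1 CPM. The ITGAV interaction ranged from -0.16 to 0.089 (above 0 without teriflunomide 3, lurbinectedin 2, lurbinectedin 3, combination 2 or combination 3) and was 0.11 by library total, 0.013 without a filter and 0.015 without both libraries. The ITGB1 interaction ranged from -0.34 to 0.011 (above 0 without teriflunomide 3).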
